A study of Mus musculus with 15 samples.

Results

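The regions described here are the accessible distal H3K27ac peaks of EL4 cells, that is, intervals of histone H3 acetylated at lysine 27 that lay away from gene ends, carried no H3K4me3 peak and touched a peak of accessible chromatin. Of 27594 merged H3K27ac peaks on the 19 autosomes, 23122 were touched by both replicates, 6324 of these touched no H3K4me3 peak, 1458 of these touched an ATAC-seq peak, and 1095 of these lay more than 3 kb from both ends of every gene. These 1095 regions, the members, made up 3.97% of all autosomal H3K27ac peaks. The members were chosen by H3K27ac, H3K4me3 and ATAC-seq peaks and gene positions, so those values are given as a description with no test, while H3K9ac, H3K36me2 and H3K27me3 were not used in the choice.

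H3K27ac is found at active promoters and at active enhancers, the distal elements that bind transcription factors and act on genes over long distances. Promoters also carry H3K4me3, so distal acetylated regions without that mark are commonly read as candidate enhancers, and an enhancer in use is usually a stretch of open chromatin between acetylated nucleosomes. H3K9ac is another acetylation of active promoters and enhancers, H3K36me2 covers broad domains inside genes and between them, and H3K27me3 is the mark of Polycomb repression. ATAC-seq maps open chromatin through the insertion of adapters by the Tn5 transposase.

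EL4 is a T lymphocyte lymphoma line of the C57BL/6N mouse strain, obtained from ATCC and grown without treatment. ChIP-seq for the 5 histone marks and ATAC-seq were each done with 2 replicates, which the study calls technical, to ask which marks lie in accessible chromatin. All libraries come from this 1 line, no other cell type or condition enters the comparison, and the spread between replicates need not cover that between cultures. The lists held 27710 and 28279 intervals for H3K27ac in replicates 1 and 2, 20512 in each replicate for H3K9ac, 38897 and 40826 for H3K36me2, and 17519 and 19255 for ATAC-seq, and since no read counts accompany them the depth behind each peak is unknown. As a check of the cell type, H3K4me3, H3K27ac and ATAC-seq peaks lay at an end of 6 of 6 T lineage markers, of 1 of 4 B lineage markers (Cd79a) and of 1 of 4 myeloid markers (Spi1), and the B lineage marker Ebf1 had H3K4me3 alone. The separation was less complete in the longer gene lists used below. There H3K4me3 lay at an end of 18 of 21 T lineage transcription factors and 16 of 20 genes of T cell receptor signalling. It also lay at an end of 3 of 10 B lineage and 3 of 10 myeloid genes.

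Only 3 members held an annotated transcript start of the RefSeq table, and each was an alternative start inside a gene, so the bases before these starts are shown as examples of member sequence on the strand of the gene (GRCm38.p6). The Steap3 window lay at chr1:120258879-120259122 on the minus strand, in a member of 392 bp at chr1:120258731-120259122. The Tpst2 window lay at chr5:112296923-112297140 on the plus strand, in a member of 1545 bp at chr5:112296923-112298467. The Fam118a window lay at chr15:85042475-85042724 on the plus strand, in a member of 1181 bp at chr15:85042381-85043561. The last window, the 250 bases before the start of Ifng at chr10:118440796-118441045 on the plus strand, is shown because 3 members flanked this gene at a distance. Capitals mark matches to short motifs of 6 factor families, searched on both strands. The letters searched were TGTGGT for RUNX factors, AGGAAG for members of the ETS family, CTTTGA for TCF/LEF proteins and AGATAA for GATA factors. The others were CAGCTG for the E-box, which reads the same on both strands, and TGANTCA for the AP-1 family.
Steap3: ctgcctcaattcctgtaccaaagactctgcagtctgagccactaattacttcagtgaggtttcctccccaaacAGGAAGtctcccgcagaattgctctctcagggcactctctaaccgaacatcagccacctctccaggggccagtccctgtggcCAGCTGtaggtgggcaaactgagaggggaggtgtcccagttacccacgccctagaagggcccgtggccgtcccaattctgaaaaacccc
Tpst2: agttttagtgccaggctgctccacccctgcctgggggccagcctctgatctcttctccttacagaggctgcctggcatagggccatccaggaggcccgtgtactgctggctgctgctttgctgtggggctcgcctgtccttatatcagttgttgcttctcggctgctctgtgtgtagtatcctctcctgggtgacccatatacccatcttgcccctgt
Fam118a: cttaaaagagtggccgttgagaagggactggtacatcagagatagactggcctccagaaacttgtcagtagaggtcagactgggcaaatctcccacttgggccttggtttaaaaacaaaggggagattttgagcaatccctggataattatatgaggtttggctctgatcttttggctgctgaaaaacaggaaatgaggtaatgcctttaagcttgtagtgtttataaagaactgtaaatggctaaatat
Ifng: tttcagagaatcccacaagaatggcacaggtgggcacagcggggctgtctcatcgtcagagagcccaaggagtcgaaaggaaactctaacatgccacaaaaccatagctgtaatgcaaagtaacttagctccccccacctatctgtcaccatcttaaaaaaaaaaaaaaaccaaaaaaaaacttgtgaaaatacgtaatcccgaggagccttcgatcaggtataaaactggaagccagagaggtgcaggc

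The Steap3 window held 1 match to the ETS letters and 1 to the E-box letters, which do not overlap. Of 31365 windows of 250 bases before annotated autosomal starts, 29.6% held the ETS letters, 13.0% the E-box, 14.0% RUNX, 13.8% TCF/LEF, 9.95% GATA and 6.77% AP-1. The Tpst2, Fam118a and Ifng windows held no match to any of the 6, and a match is a description of letters and not a binding site. The GC content of the windows was 56.6% for Steap3, 58.3% for Tpst2, 41.6% for Fam118a and 45.2% for Ifng. The members in Tpst2 and Fam118a touched H3K9ac peaks in both replicates and lay wholly inside H3K36me2, and the member in Steap3 lay wholly inside H3K36me2 and touched no H3K9ac peak.

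Members were short and mostly held a single site of open chromatin. Their median width was 725 bp, with quartiles at 461 and 1181 bp and a range of 203 to 7431 bp, and together they covered 1.05 Mb. Distal H3K27ac peaks without H3K4me3 that touched no ATAC-seq peak, the inaccessible distal peaks (n = 3609), had a median width of 501 bp, and the peaks touching both H3K4me3 and ATAC-seq, called promoter-type here (n = 13287), 1518 bp. An ATAC-seq peak was touched by 23.3% of distal H3K27ac peaks without H3K4me3 and by 79.1% of H3K27ac peaks with H3K4me3. In 1076 members 1 ATAC-seq peak was found, in 18 members 2, and in 1 member 3. Both ATAC-seq replicates touched 652 members (59.5%), only replicate 1 touched 123 and only replicate 2 touched 320, so accessibility of 443 members rests on 1 library. The overlap was often small, with a median of 221 bp per member and under 50 bp in 77 members.

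The open site frequently lay beside the acetylated interval and not inside it. The midpoint of the touching ATAC-seq peak fell outside 401 members (36.6%), and at 213 of these the same ATAC-seq peak touched a further H3K27ac peak. Each of 68 ATAC-seq peaks touched 2 members, so that 136 members (12.4%) shared their open site with another member across a gap of 16 to 465 bp (median 126.5 bp). An example is Ski, a co-repressor of TGF-beta signalling, where members at chr4:155161822-155162341 and chr4:155162425-155163593 were separated by 83 bp under 1 ATAC-seq peak of 688 bp. In Ptprj, a receptor-type tyrosine phosphatase, members at chr2:90496465-90496787 and chr2:90496965-90497268 were separated by 177 bp under an ATAC-seq peak of 407 bp. When members that share an ATAC-seq peak were joined, 1027 elements remained.

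The thresholds of the choice cut through a continuous range. The members nearest to a gene end lay 3025, 3047 and 3058 bp away, and the accessible peaks just outside the limit lay 2968, 2963 and 2953 bp away. The median distance of a member to a gene end was 14.2 kb. Of the 3609 inaccessible distal peaks, which are so called because they touched no ATAC-seq peak, 447 had one within 500 bp. An H3K4me3 peak lay within 500 bp of 100 members, and the median gap to the nearest H3K4me3 peak was 12.8 kb, against 4.40 kb for the inaccessible distal peaks.

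Members touched H3K9ac more often than inaccessible distal peaks and far less often than promoter-type peaks. An H3K9ac peak was touched by 341 members (31.1%) in replicate 1 and by 336 (30.7%) in replicate 2, a mean of 30.9% ± 0.323 (SD, n = 2 lists), and 257 members (23.5%) were touched in both. The share was 12.3% ± 0.411 for inaccessible distal peaks and 96.4% ± 0.218 for promoter-type peaks. The difference between members and inaccessible distal peaks was 19.2 percentage points in replicate 1 and 18.1 in replicate 2 (18.7 ± 0.734), larger than the spread between replicates. The 363 accessible peaks without H3K4me3 that lay within 3 kb of a gene end had a share of 34.3% ± 0.584. No test was run on these shares. All sets of peaks were scored against the same 2 H3K9ac lists, which are too few for a permutation test.

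**Figure D1:**
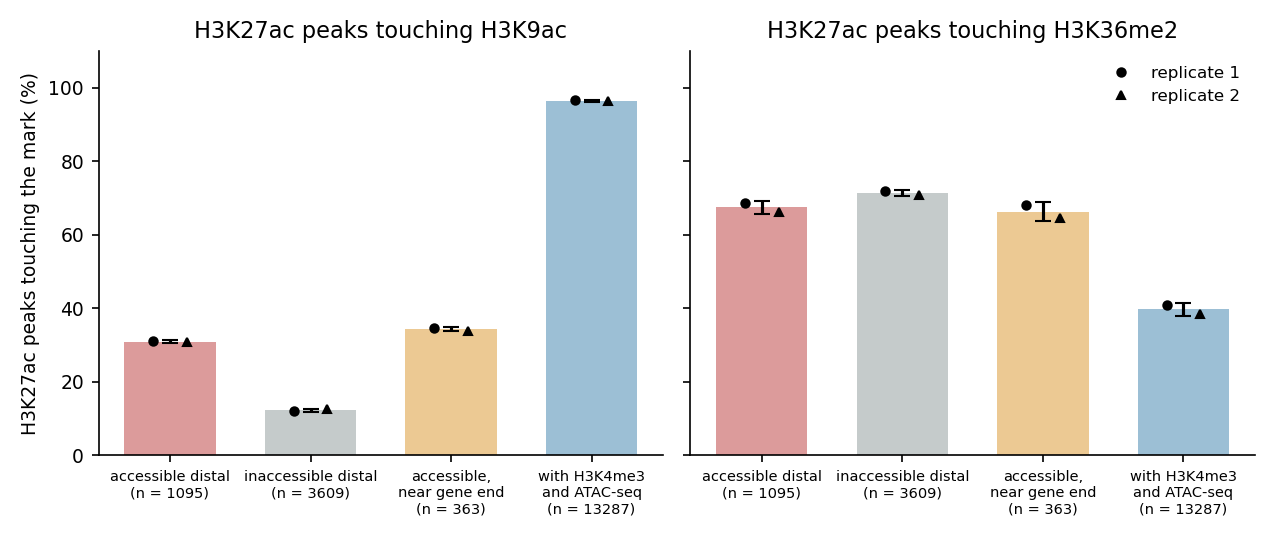
Percent of H3K27ac peaks that touch a peak of H3K9ac (left) or H3K36me2 (right) in 4 sets of H3K27ac peaks, with the number of peaks in each set. Bars are the mean of 2 replicates, error bars the SD, circles replicate 1 and triangles replicate 2. Accessible distal peaks lie at 30.9% for H3K9ac, between the inaccessible distal peaks at 12.3% and the promoter-type peaks at 96.4%, and at 67.4% for H3K36me2, above the promoter-type peaks at 39.7%.

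Wide members touched H3K9ac much more often than narrow ones. The 420 members that touched an H3K9ac peak of either replicate had a median width of 1129 bp and the other 675 had 582 bp. H3K9ac was touched by 9.59% ± 0.667 of the 318 members under 500 bp, by 23.6% ± 1.53 of the 417 members of 500 to under 1000 bp, by 51.5% in both replicates of the 268 members of 1000 to under 2000 bp, and by 77.7% ± 0.769 of the 92 members of 2000 bp or more. Inaccessible distal peaks of the same widths had 3.31% ± 0.197, 13.0% ± 0.427, 39.4% ± 1.16 and 73.7% ± 1.20. The members thus had the higher share at every width in each replicate, and the distance between the sets was smallest in the widest class. Counted in base pairs, 17.1% ± 0.593 of the length of members lay in H3K9ac, against 7.75% ± 0.00395 for inaccessible distal peaks.

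H3K36me2 covered most members, and the narrow ones less often. It was touched by 752 members (68.7%) in replicate 1 and 724 (66.1%) in replicate 2, a mean of 67.4% ± 1.81 (SD, n = 2 lists), against 71.4% ± 0.823 for inaccessible distal peaks and 39.7% ± 1.77 for promoter-type peaks. The difference from inaccessible distal peaks was -3.31 percentage points in replicate 1 and -4.70 in replicate 2. Members under 500 bp had a share of 54.4% in replicate 1 and 48.1% in replicate 2, and inaccessible distal peaks of that width had 69.3% and 68.5%. In the next class the shares were 68.1% ± 1.70 and 72.1% ± 1.44, for 1000 to under 2000 bp 78.0% ± 0.528 and 77.4% ± 0.666, and for 2000 bp or more 89.1% and 89.8% ± 2.40. In the latter 2 classes, members and inaccessible distal peaks differed by no more than the spread between replicates.

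**Figure D2:**
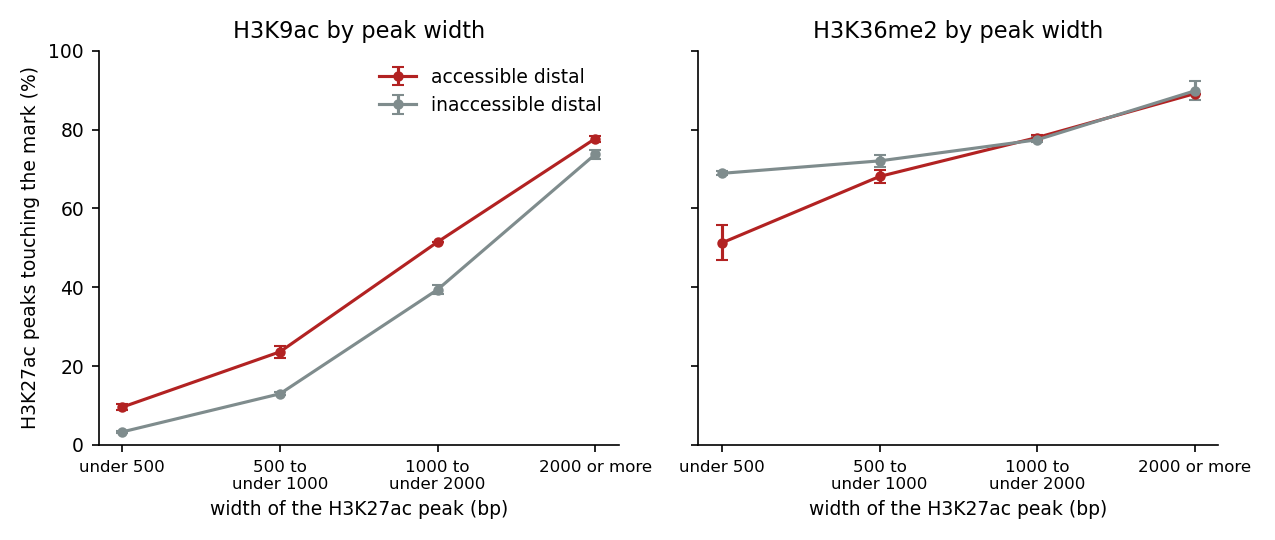
Percent of accessible distal (red) and inaccessible distal (gray) H3K27ac peaks that touch H3K9ac (left) or H3K36me2 (right), by width of the H3K27ac peak in bp. Points are the mean of 2 replicates and error bars the SD. The H3K9ac share of accessible peaks climbs from 9.59% to 77.7% with width, and the H3K36me2 shares of both sets meet at widths of 1000 bp or more and lie apart under 500 bp, at 51.3% and 68.9%.

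Around the ATAC-seq peaks of members, H3K36me2 was called less often at the midpoint than at 1 kb on either side. This midpoint lay outside 401 of the members, as given above. Of 860 members touching H3K36me2 of either replicate, 732 lay wholly inside it and 128 were partly covered. The H3K36me2 peaks at members had a median width of 18.9 kb, against 20.6 kb at inaccessible distal peaks and 17.4 kb at promoter-type peaks, and wide domains are touched more often by any set of positions. Of the 235 members without the mark 150 (63.8%) had an H3K36me2 peak within 10 kb. At the midpoint of the ATAC-seq peak, 58.4% of members were covered in replicate 1 and 55.4% in replicate 2. At 1 kb before and after the midpoint the values were 65.2% and 65.5% in replicate 1 and 64.4% and 63.6% in replicate 2, and they declined to 48.4% ± 0.129 and 47.7% ± 1.23 at 20 kb. Coverage at the open site was thus lower than at 1 kb on either side in both replicates, by more than the spread between replicates.

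Centred on the H3K27ac interval instead, H3K36me2 covered 62.1% ± 2.91 of members at the midpoint and 63.1% ± 0.839 and 63.4% ± 1.10 at 1 kb before and after it, a difference within the spread between replicates. Centred the same way, inaccessible distal peaks had 69.2% ± 0.725 at the midpoint and 64.9% ± 0.980 and 65.1% ± 1.72 at 1 kb before and after it. At 0.5 kb after the midpoint of the member, coverage was 63.1% in replicate 1 and 59.5% in replicate 2. At 1.5 kb after it the values were 65.9% and 63.6%, and the same order held before it. Lower coverage was thus also seen close to the midpoint of the member, but it was less deep than at the ATAC-seq midpoint. Inaccessible peaks have no ATAC-seq midpoint. H3K9ac covered 14.2% ± 0.839 of members at the ATAC-seq midpoint and 2.83% and 2.88% ± 0.323 at 1 kb on either side. Around inaccessible distal peaks the H3K9ac coverage was 7.51% ± 0.0784 at the midpoint and reached 10.4% ± 0.0196 at 2 kb before it, and these peaks lay nearer to H3K4me3 peaks than the members, as given above.

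**Figure D3:**
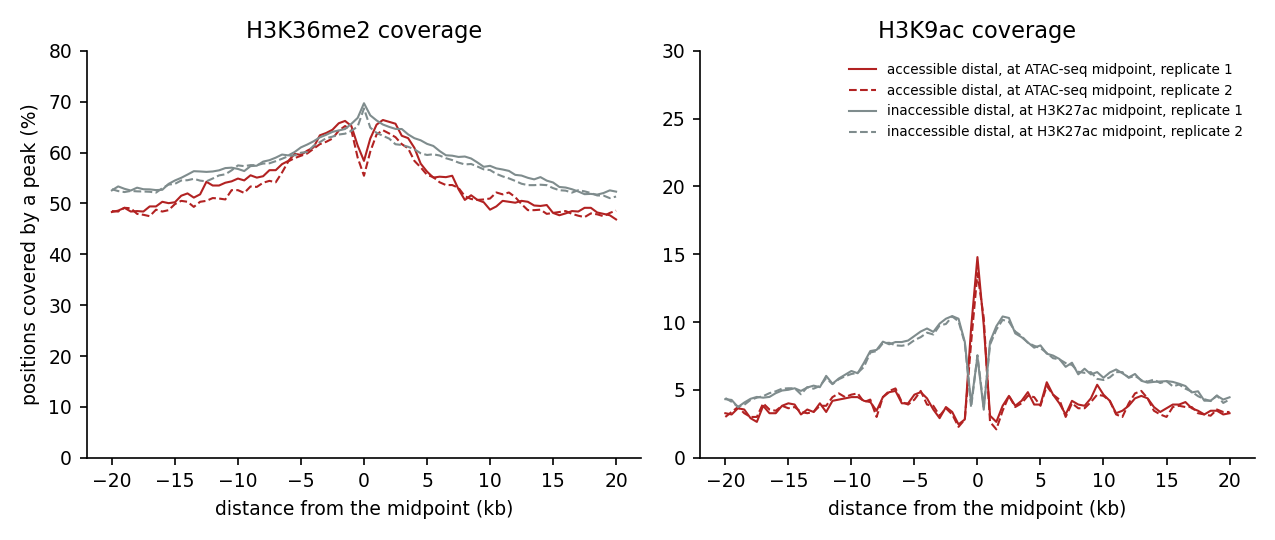
Percent of positions covered by an H3K36me2 peak (left) or an H3K9ac peak (right) from 20 kb before to 20 kb after the midpoint, for accessible distal peaks centred on their ATAC-seq peak (red) and inaccessible distal peaks centred on the H3K27ac peak (gray). Solid lines are replicate 1 and dashed lines replicate 2. H3K36me2 around accessible peaks dips to 58.4% and 55.4% at the ATAC-seq midpoint, and H3K9ac rises to 14.8% and 13.6% there.

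The marks combined in a graded way. Both H3K9ac and H3K36me2 were touched by 338 members (30.9%), H3K36me2 alone by 522 (47.7%), H3K9ac alone by 82 (7.49%) and neither by 153 (14.0%), with median widths of 1269.5, 624, 739 and 442 bp. H3K9ac was touched by 32.0% ± 0.329 of members with H3K36me2 and by 27.02% ± 0.301 of those without. The 106 members more than 100 kb from any H3K4me3 peak had the lowest shares, 19.3% ± 0.667 for H3K9ac and 39.6% ± 2.67 for H3K36me2. Members nearer to H3K4me3 had 31.5 to 33.3% for H3K9ac and 67.2 to 74.3% for H3K36me2 in 3 classes of distance. Inaccessible distal peaks more than 100 kb from H3K4me3 also had a low H3K36me2 share, 37.1% ± 0.989, whereas their H3K9ac share of 13.6% ± 0.494 was within the 10.1 to 14.4% of the nearer classes. H3K27me3 was touched by 1 member (0.0913%), a peak of 340 bp at chr8:121643621-121643960 inside Zcchc14, in both replicates. This member shared 39 bp with an ATAC-seq peak, in replicate 2 only. H3K27me3 was also rare in the other sets, at 0.139% of inaccessible distal peaks and 0.538% ± 0.0266 of promoter-type peaks.

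About 2 in 3 members lay inside a gene. Of the members, 733 (66.9%) overlapped a gene of any type and 672 (61.4%) had their midpoint in a protein-coding gene, against 69.7% of inaccessible distal peaks and 86.0% of promoter-type peaks inside a gene. The promoter-type peaks had no limit on the distance to gene ends, so those over a gene end count as inside, and their share is not directly comparable. H3K36me2 was touched by 69.8% ± 1.16 of members inside genes and 62.4% ± 3.13 of those between genes. For H3K9ac the shares were 29.5% ± 0.675 inside and 33.7% ± 0.391 between genes, the opposite order. Where the start table gave the strand of the assigned gene (855 members), the median distance to its nearest annotated start was 37.8 kb, 134 members (15.7%) lay within 10 kb and 355 (41.5%) more than 50 kb away. Of members outside protein-coding genes with a known strand, 171 lay upstream of their gene and 150 downstream.

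Members were far apart. The median gap to the nearest other member was 189 kb, with quartiles at 19.2 and 795 kb, and 228 members (20.8%) had none within 1 Mb. Inaccessible distal peaks, which are more numerous, had a median gap of 6.71 kb to one another, and a member had any other H3K27ac peak of both replicates at a median of 1.40 kb. Another member lay within 5 kb of 208 members (19.0%), and 136 of these (65.4%) were the members that share an ATAC-seq peak. After joining those, the median gap was 282 kb. Without joining, it was 338 to 452 kb with members more than 10 kb from gene ends, with intervals merged within 1000 bp, with ATAC-seq peaks of both replicates or with 50% overlap. After the joining, 77 of 1027 elements (7.50%) had another within 5 kb. Density ranged from 0.201 members per Mb on chromosome 14 (25 members) to 0.611 on chromosome 17 (58 members).

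**Figure D4:**
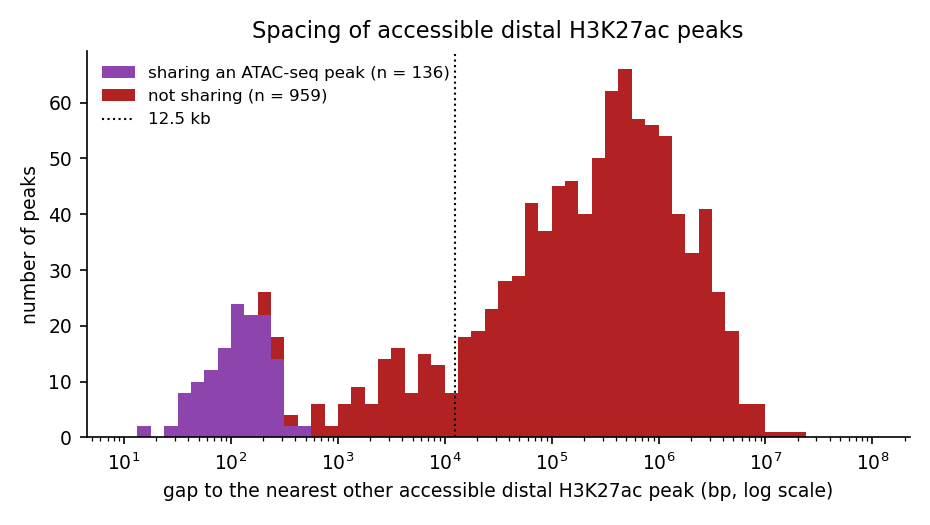
Number of accessible distal H3K27ac peaks by the gap to the nearest other one, in bp on a log scale. Purple bars are the 136 peaks that share an ATAC-seq peak with another, red bars the other 959, and the dotted line marks 12.5 kb. The peaks that share an open site form a separate group at gaps of 16 to 465 bp, and most others lie more than 12.5 kb apart.

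Runs of members with gaps of at most 12.5 kb were short. There were 118 such clusters, 105 with 2 members and 13 with 3, holding 249 members (22.7%), and none had more than 3. After joining members with a shared ATAC-seq peak, 60 clusters of 2 or 3 elements remained, which held 123 elements (12.0%). Members in clusters touched H3K9ac in 22.3% ± 1.99 and single members in 33.5% ± 0.167, with median widths of 641 and 750 bp. For the 136 members that share an ATAC-seq peak the H3K9ac share was 16.5% ± 0.520, against 33.0% ± 0.295 for the other 959, and the part of width (609.5 against 745 bp) in this difference was not tested. The longest clusters of 3 were at chr12:86790206-86808233 near Lrrc74a, at chr10:75124606-75138212 in Bcr, at chr12:89949912-89963309 in Nrxn3, at chr4:8187659-8200571 in Car8 and at chr2:90496465-90505182 in Ptprj. The cluster in Bcr, the gene known as a fusion partner of Abl1 in leukemia, had the most acetylated sequence of these, 4933 bp or 36.3% of its length, with H3K36me2 at 3 of 3 members and H3K9ac at 0 of 3 in both replicates. In the clusters in Bcr, Car8 and Ptprj, 2 of the 3 members shared 1 ATAC-seq peak.

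Members were assigned to the protein-coding gene that holds their midpoint or, failing that, to the nearest one, which gave 841 of 20661 genes (4.07%). Of these genes 653 had 1 member, 141 had 2 and 47 had 3 or more. An H3K4me3 peak lay over an end of 565 of the 841 (67.2%), against 48.4% of all protein-coding genes, and the genes were long, with a median of 68.7 kb against 17.5 kb. Length is tied to the rule, since a gene of 6 kb or less cannot hold a member more than 3 kb from both ends. Of all protein-coding genes 74.8% were over 6 kb. Of genes of 50 kb or longer 10.6% were assigned a member, of shorter genes 2.13%, and of genes of 50 kb or longer with H3K4me3 at an end 14.3%. The nearest gene is a position and does not show which gene an element acts on.

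Foxp1, a forkhead factor that keeps T cells quiescent, was assigned the most members, 8. Of these 4 lay inside the gene (chr6:98925342-99522746) and 4 beyond its downstream end, the farthest at 244 kb, and their widths ran from 282 to 3725 bp. H3K36me2 was touched by 7 of the 8 in each replicate and H3K9ac by 5 in replicate 1 and 4 in replicate 2. The widest, at chr6:98679810-98683534, lay beyond the downstream end and had H3K9ac over 1681 bp, 45.1% of its length. No Foxp1 members shared an ATAC-seq peak. The member at chr6:98900853-98901344 was touched by ATAC-seq replicate 2 only, over 37 bp, and that at chr6:99464295-99464878 by replicate 1 only, over 200 bp. Of the members with H3K9ac, those at chr6:98879656-98881553 and chr6:99384880-99387125 lay 136 and 799 bp from an H3K4me3 peak. The others with H3K9ac lay 1697 to 31581 bp from one.

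Other genes with many members fell into different kinds. Ski and Ptprj had 5 members each, and Cux1, a homeobox factor, and Itpr2, an intracellular calcium channel, had 4 each, all inside the gene and all touching H3K36me2 in both replicates. The Itpr2 members shared 257, 3, 77 and 14 bp with ATAC-seq peaks. Only the first of them was touched by both ATAC-seq replicates, and the others by replicate 2 only. Some members of Ski, Ptprj and Cux1 were also touched by ATAC-seq replicate 2 only. H3K9ac was touched by 0 of the 5 members of Ski in either replicate, by 1 and 2 members of Ptprj in replicates 1 and 2, by 0 and 1 of Cux1 and by 1 and 0 of Itpr2. Trib2, a pseudokinase linked to leukemia, had 4 members, at 89.1 to 317 kb outside the gene, with H3K36me2 at 3 in each replicate and H3K9ac at 0. Slc16a10, Nrxn3 and Nek10 with 4 members each had no H3K4me3 peak at either end. After joining members that share an ATAC-seq peak, Ptprj kept 4, Ski 3, and Cux1, Itpr2, Nek10, Trib2 and Slc16a10 3 each.

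Of 21 T lineage transcription factors, 9 were assigned a member (42.9%), 19 members in all and 8 of them at Foxp1. The share was 4.07% of all genes and 14.3% of genes of 50 kb or longer with H3K4me3 at an end. The list had a median gene length of 88.0 kb, 18 of the 21 genes had H3K4me3 at an end, and the lists were chosen with earlier results of these data known. Id2, an inhibitor of E proteins, had a member of 1495 bp 21.9 kb upstream with H3K9ac in both replicates over 749 bp and a member of 1548 bp 69.2 kb upstream without H3K9ac, both wholly inside H3K36me2. Foxo1, a forkhead factor of T cell homeostasis, had 3 members, of which 1 of 324 bp lay in the gene and the others 47.0 and 289 kb beyond it. The member in the gene shared 13 bp with an ATAC-seq peak, in replicate 2 only. Runx3, which acts in CD8 lineage choice, had a member of 794 bp 6.14 kb downstream, and Gata3, the factor of T cell commitment and Th2 cells, a member of 597 bp at 283 kb. Single members lay in Tcf12, Tox and Ikzf1 and at 43.9 kb upstream of Id3. An H3K4me3 peak lay 129 bp from the member of Id3 and 596 bp from that of Tcf12. The members of Gata3, Runx3, Id2, Foxo1, Tox and Ikzf1 lay 2650 bp or more from one. The members of Gata3 and Tcf12 were touched by ATAC-seq replicate 2 only, and that of Ikzf1 by replicate 1 only. Tcf7, Lef1, Bcl11b, Runx1, Ets1 and Myb were among the 12 factors with 0 members.

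Ifng, the gene of interferon gamma, had 3 members and no H3K4me3 peak at either end. A member of 1141 bp at chr10:118418684-118419824 lay 21.8 kb upstream, one of 824 bp at chr10:118468737-118469560 lay 23.3 kb downstream and one of 1206 bp at chr10:118494899-118496104 lay 49.6 kb downstream. Both ATAC-seq replicates touched all 3, over 640, 528 and 470 bp. The upstream member had H3K9ac in both replicates over 863 bp (75.6% of its length) and no H3K36me2. The downstream members had no H3K9ac, and H3K36me2 covered the nearer in replicate 1 only and the farther in both replicates. In replicate 2 the nearer downstream member thus carried neither mark.

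The share of genes with a member was 4.07% over all genes, 2.13% under 50 kb and 10.6% at 50 kb or longer. Among cytokines and their receptors, 3 of 15 genes (20%) were assigned a member. Beside Ifng these were Ifngr1, the receptor chain for interferon gamma, with a member of 1772 bp inside the gene that touched H3K9ac and H3K36me2 in both replicates, and Ccr7, a homing receptor, with a member of 602 bp at 11.9 kb. Of 20 genes of T cell receptor signalling 3 (15%) were assigned members. These were Ptprc, Prkcq and Cd2. Ptprc, which encodes CD45, had 2, of which 1 lay inside the gene and 1 at 359 kb outside it. Prkcq, the protein kinase C of the T cell synapse, had 2 inside the gene, and the adhesion receptor Cd2 had 1 at 64.0 kb. Of 15 growth, survival and leukemia genes 4 (26.7%) were assigned 1 member each. Among these, members lay inside Ccnd3 and Cdk6 and 180 kb from Myc. The members of Cdk6 and Cd2 each lay 244 bp from an H3K4me3 peak, and that of Ccnd3 2630 bp from one. The member assigned to Myc shared 31 bp with an ATAC-seq peak, in replicate 2 only.

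Of 10 B lineage, 10 myeloid and 10 liver genes, 0 had a member, and of 10 neural genes 1, Rbfox3, which spans 422 kb. These counts are near the share of 4.07% over all genes and 2.13% over genes under 50 kb, and no difference from them can be read from lists of this size. Of 10 housekeeping genes 2 had one (20%), the same share as among cytokines and their receptors. These were Actb with a member of 1494 bp at 18.3 kb and Ywhaz with a member of 1682 bp at 52.7 kb. The lists of other lineages hold shorter genes than the T lineage factors, with medians of 10.8 kb for B lineage, 7.68 kb for myeloid, 7.07 kb for neural and 13.0 kb for liver genes, and the median number of members was 0 in every list. No list was tested.

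**Figure D5:**
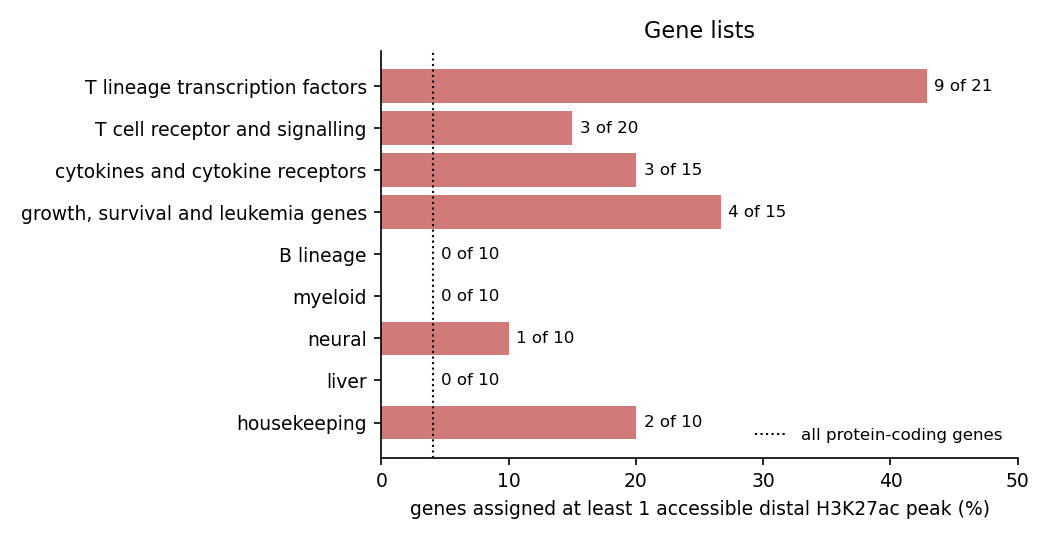
Percent of the genes of 9 lists that were assigned at least 1 accessible distal H3K27ac peak, with the counts beside the bars and the share of all protein-coding genes, 4.07%, as a dotted line. T lineage transcription factors have the highest share, 9 of 21, and the B lineage, myeloid and liver lists have 0 of 10 each.

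The widest members carried both H3K9ac and H3K36me2. A member of 7431 bp at chr9:70304193-70311623 in Myo1e, a myosin, held 3 ATAC-seq peaks, with H3K9ac over 19.2% and H3K36me2 over 89.2% of its length. The next had widths of 5462 bp (near 9230019H11Rik), 4848 bp (19.2 kb upstream of Lbr, the lamin B receptor), 4774 bp (in Zfp469) and 4705 bp (in Jazf1). All 5 touched H3K9ac and H3K36me2 in both replicates, H3K9ac over 10.8 to 48.9% of their length. The members farthest from any gene end were different. In Nrxn3, a neuronal adhesion gene without H3K4me3 at its ends, 3 members lay 372 to 384 kb from the nearest end within a stretch of 13398 bp, and all 3 had ATAC-seq peaks in both replicates. The first, of 567 bp, had H3K36me2 and no H3K9ac in both replicates, the middle one of 1078 bp had H3K9ac over 707 bp and no H3K36me2, and the last, of 595 bp, had neither. This last one lay 213 bp from an H3K4me3 peak. The next farthest lay in Exoc4 at 219 kb from a gene end and near 4930474N05Rik at 219 kb.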

How the data were processed

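The authors deposited, for each replicate, lists of called intervals with chromosome, start and end in base pairs and no score, count or signal. According to the methods and the submitters' processing notes, reads were aligned with STAR 2.5 to GRCm38, kept where unique, and treated with Picard. Peaks were called with macs2 for ATAC-seq and the narrow marks, and with Epic, which joins bins of reads into broad domains, for H3K36me2 and H3K27me3. The choice of caller affects widths, and a broad call can span a short gap in signal. The input served as control in the authors' calling of ChIP-seq peaks. Neither the input nor the transcript libraries were used directly here.

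Intervals of both replicates were merged where they overlapped or adjoined, and 1 shared bp counted as touching. Shares are given per replicate list with mean and SD. The members, gene lists and sets were chosen with earlier results of these data known. Gene positions and start windows came from RefSeq tables of GRCm38.p6, in which 121 of 121 listed genes matched, and no genome sequence was used here. Named are genes of 9 lists, the 10 genes with the most members, the 5 widest and 5 farthest members and the 5 clusters with the most members, ties by length, except for some genes that are not reported here. The 3 members with an annotated start, the pairs sharing an ATAC-seq peak and the Ifng window were chosen after their values were seen, as were the classes of width and distance. The rule was checked on 1900 simulated peaks, of which 0 were misplaced, and 5 overlap counts were checked against bedtools, of which 0 differed. Tools were Python 3.11.15, numpy 2.4.6, pandas 2.3.3, matplotlib 3.10.9 and bedtools 2.31.1. Alternatives were either H3K27ac replicate, ATAC-seq peaks of both replicates, 50% overlap, merging within 1000 bp, 10 kb to gene ends, protein-coding ends, the 200 bp at the peak midpoint, second marks in both replicates, the nearest gene end and each replicate left out.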

Additional observations from a re-analysis of the deposited data

How the results depend on the processing

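The number of members, 1095, became 710 with ATAC-seq peaks of both replicates and 704 at more than 10 kb from gene ends, and stayed within 1.5 times under the other alternatives, with 904 to 1231 when either replicate of every assay was left out. The share touching H3K9ac of either replicate, 38.4%, was 33.2% with H3K27ac of either replicate, 46.7% with 50% overlap, 39.2% with merging within 1000 bp, 34.7% beyond 10 kb, 32.0% at the peak midpoint, 23.1% with H3K9ac peaks in both replicates and 32.3% without either replicate. The share touching H3K36me2, 78.5%, was 82.0% with merging, 76.6% beyond 10 kb, 76.3% at the midpoint, 69.0% with peaks in both replicates and 63.0 to 66.2% without a replicate. The median gap between members, 189 kb, was 390 kb with ATAC-seq peaks of both replicates, 452 kb with 50% overlap, 376 kb with merging, 338 kb beyond 10 kb and 157 to 250 kb without a replicate, and 282 kb with members sharing an ATAC-seq peak joined, an alternative chosen after seeing the data. The share inside genes, 66.9%, was 57.3% with protein-coding ends and otherwise 67.3% (H3K27ac of either replicate), 66.8% (ATAC-seq peaks of both), 65.6% (50% overlap), 66.4% (merging), 67.6% (10 kb) and 66.6 to 66.7% without a replicate. The share of genes with a member was 4.11% by nearest gene end and 3.40 to 4.43% without a replicate. No paired analysis was possible because no result comes from a test, and differences within each replicate number are given as values.

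Read depth is unknown, so a missing peak may be a weak signal under the threshold of the caller. Each assay has 2 technical replicates, which do not measure variation between cultures. Merged intervals depend on how each caller joined nearby signal, and its part in the 68 pairs of members under 1 ATAC-seq peak was not tested.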

Other observations

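Both marks at the members varied between chromosomes. H3K36me2 was touched by 36% of the 25 members on chromosome 14 (40.0% in replicate 1 and 32.0% in replicate 2) and by 83.6% of the 58 members on chromosome 15 (86.2% and 81.0%), with all other autosomes between these means. For H3K9ac the means ran from 18% on chromosome 14 (12.0% and 24.0%) to 44.0% on chromosome 16 (48.0% and 40.0%), which had 25 members as well. The share of distal H3K27ac peaks without H3K4me3 that touched an ATAC-seq peak ran from 15.8% on chromosome 14 to 35.1% on chromosome 8. These values are descriptions of few regions per chromosome and were not tested.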
